A study of Mus musculus with 21 samples.

Results

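The 2 lines compared here were C2C12 myotubes (MTs) in which either WFS1 or TMEM214 had been knocked down, set directly against each other without the control arrays. Members were chosen by sample title alone, 3 arrays of WFS1 shRNA and 3 arrays of TMEM214 shRNA, 6 of the 21 arrays in the study. C2C12 is an established mouse myoblast (MB) line that fuses into MTs when serum is reduced. Both lines had received lentiviral shRNA, were selected with puromycin at 1 µg/ml, were switched to 2% horse serum and were harvested at day 6, with the sodium channel blocker tetrodotoxin (TTX) at 1 µM added at 72 h. These are the labels' values, and the study's methods give a later time for TTX and a higher dose of puromycin. By the labels MTs were lifted off remaining MBs by a short trypsin step and a slow spin. By the study's methods each line was a stable one made with a single shRNA. The other groups, 3 arrays each, were MTs with shRNA against TMEM38A or NET39, MTs with control shRNA, untransduced MTs with the same serum and TTX but no puromycin, and untransduced MBs at day 0. All groups came from C2C12 cells, and no second shRNA or second line per target was analysed here.

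WFS1 encodes wolframin, a multi-pass membrane protein of the endoplasmic reticulum (ER) that bears on ER calcium and on the ER stress response, and loss of which causes Wolfram syndrome. TMEM214 is a membrane protein of the ER that has been linked to apoptosis after ER stress. The ER membrane runs on into the nuclear membrane, and both proteins count among the muscle nuclear envelope transmembrane proteins (NETs) whose part in gene positioning the study addressed. The study carried WFS1 further but set TMEM214 aside, as its knockdown overlapped much with the other NETs, and proposed an indirect mechanism for it. The direct contrast asks how the transcriptomes left by the loss of one or the other differ. As MBs become MTs, cell cycle genes are shut off, and MyoD family factors with MEF2 factors switch on the sarcomere, the sarcoplasmic reticulum and muscle metabolism.

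The platform was the Illumina MouseWG-6 bead array, and all levels below are the deposited quantile-normalised log2 intensities, on which a difference of 1 is a doubling of signal. Log2 values correlated at 0.9959 to 0.9968 between WFS1 arrays and at 0.9963 to 0.9977 between TMEM214 arrays, and no pair of these arrays was identical. Mean scanner intensity before normalisation was 400, 302 and 301 on the WFS1 arrays and 433, 414 and 447 on the TMEM214 arrays, so the groups did not overlap, and the part of this in the results was not tested. A probe was kept where it lay above the background level of its array (log2 6.60) in at least 3 of the 6 arrays. This held for 21398 of 45281 probes, and the brightest kept probe with a gene symbol stood for each of 10951 genes. The values carry background signal, so differences of dim genes are understated. The number of arrays limits the precision, and since the 3 arrays of a line are replicate cultures of that line, p-values measure the spread between those arrays and not between lines made anew.

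Each target was lowest in the line carrying its own shRNA. Wfs1 read 6.82, 6.83 and 6.79 in the WFS1 line, against 9.20, 9.21 and 9.56 in the TMEM214 line. The groups did not overlap, and the WFS1 arrays lay just above background. Wfs1 was thus 5.7-fold lower in the WFS1 line (log2 −2.51, SE 0.09, adjusted p = 1.06e-07), from its 1 probe. Tmem214 read 8.28, 8.28 and 8.34 in the WFS1 line, against 7.23, 7.20 and 7.32 in the TMEM214 line, a 2.07-fold difference (log2 1.05, SE 0.05, adjusted p = 6.62e-07). The other two kept Tmem214 probes were dimmer and differed by 0.29 and 0.33, in the same direction. In control shRNA MTs Wfs1 averaged 10.35 and Tmem214 8.19. Wfs1 was therefore also below control in the TMEM214 line (log2 −1.03, adjusted p = 0.000257 in the fit on all 21 arrays), while Tmem214 in the WFS1 line was near control (0.11, adjusted p = 0.377). The other 2 NET genes of the study were both higher in the WFS1 line than in the TMEM214 line, Plpp7, which encodes NET39, by 0.84 (SE 0.05, adjusted p = 3.48e-06) and Tmem38a, which encodes a sarcoplasmic reticulum potassium channel, by 0.59 (SE 0.08, adjusted p = 0.000442), or by 0.23 and not called with median scaling. Against control neither was called in the WFS1 line (Plpp7 −0.13, Tmem38a 0.02). In the TMEM214 line both were lower than control (Plpp7 −0.96, Tmem38a −0.57), so all 4 NET genes were below control there.

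**Figure D1:**
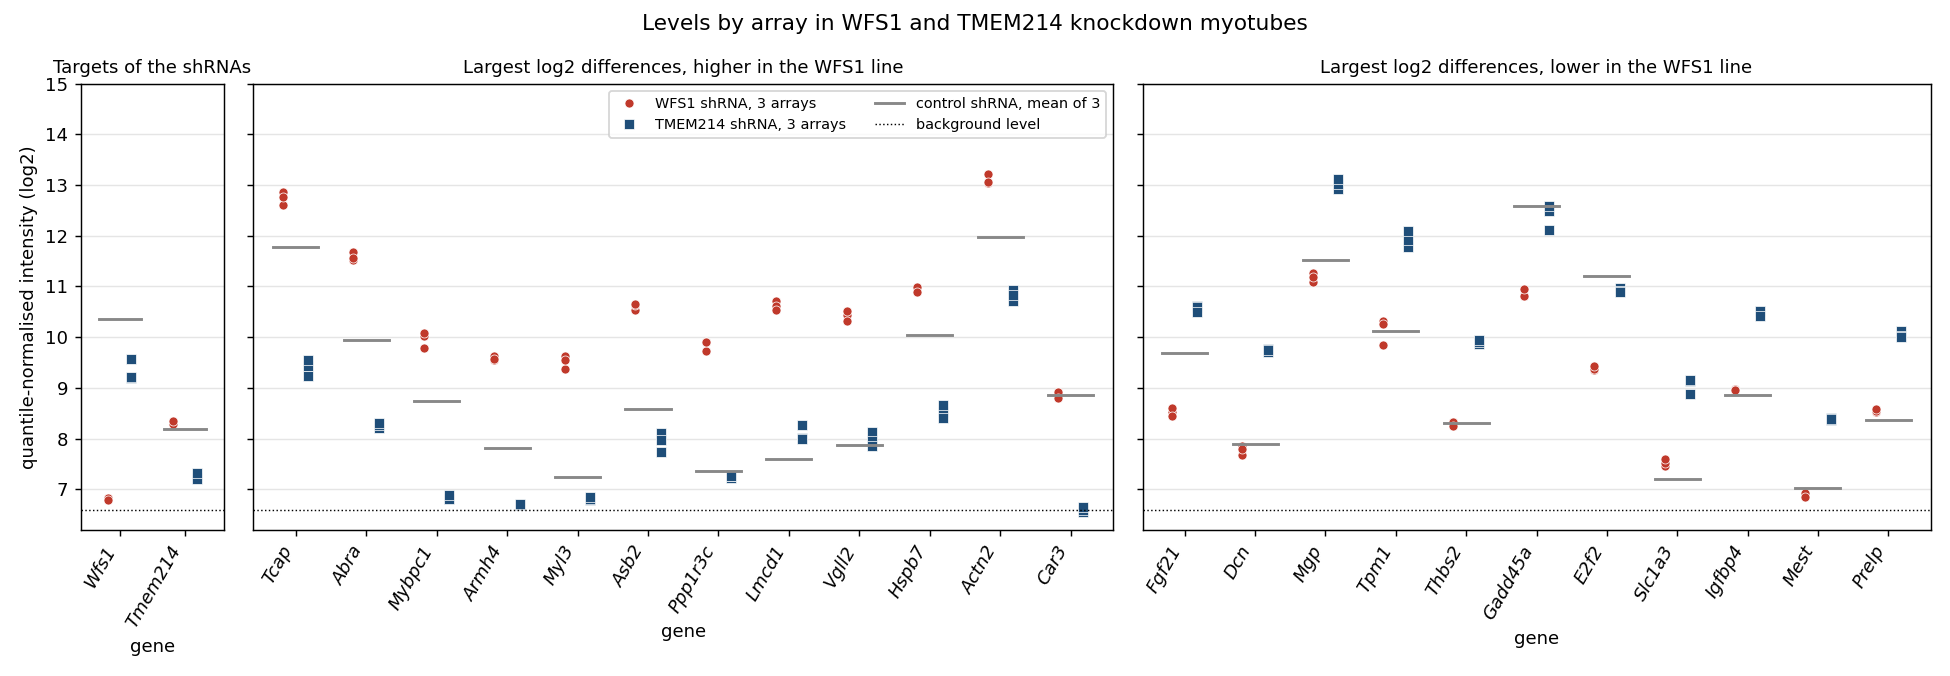
Quantile-normalised log2 intensity (y axis) of each WFS1 array (circles) and each TMEM214 array (squares) for the 2 targets, the 12 genes most raised and the 11 others most lowered in the WFS1 line, with the control shRNA mean as a grey bar and the background level dotted. Circles and squares of a gene never overlap, which was a condition of choice for all genes but the targets. The grey bar lies between both for some genes, such as Tcap and Fgf21. For others, such as Dcn and Ppp1r3c, it lies beside one of them.

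A gene was called where limma's adjusted p was under 0.05 and its log2 difference was over 0.5 in size, and 1070 of 10951 genes (9.77%) met this. Of these 522 (4.77% of genes) were higher in the WFS1 line and 548 (5.00%) lower. In 223 genes the difference passed 1, and 140 of those were higher and 83 lower. All 1070 had groups that did not overlap, against 49.8% of all tested genes. With a median SE of 0.058 and a difference over 0.5 required, this nearly follows from the rule for calling. The median gene differed by −0.021, with quartiles of −0.15 and 0.10, and list medians below are to be read beside these. Counts of called genes in a list are to be read beside the 9.77% of all tested genes. Listed genes not tested were not on the array or not above background. Where no gene of a list was called in a direction, the number at an unadjusted p under 0.05, whatever its size, is given. When scanner values were only scaled to a common median per array the median gene lay at −0.25 and the split became 237 higher and 2639 lower, and none of the 1070 calls changed direction. So directions below are those of quantile-normalised values, relative to all genes on the array.

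Muscle structural genes led the genes that were higher in the WFS1 line. Tcap encodes telethonin, which caps titin at the Z-disc, and read 12.60, 12.87 and 12.76 in the WFS1 line, against 9.43, 9.55 and 9.24 in the TMEM214 line (log2 3.33, SE 0.09, adjusted p = 4.84e-08). By the means it was 10.1-fold higher, and every WFS1 array lay above every TMEM214 array. Abra, an actin-binding protein of striated muscle, read 11.67, 11.52 and 11.56 in the WFS1 line, against 8.20, 8.26 and 8.31 in the TMEM214 line (3.33, SE 0.06, adjusted p = 3.81e-09). Mybpc1 encodes slow skeletal myosin-binding protein C and read 10.02, 10.08 and 9.79 in the WFS1 line, against a near-background 6.81, 6.81 and 6.89 in the TMEM214 line (3.13, SE 0.07, adjusted p = 2.64e-08). Myl3, the essential myosin light chain of slow muscle and heart ventricle, was likewise far apart, at 9.38, 9.63 and 9.54 in the WFS1 line and 6.78, 6.80 and 6.85 in the TMEM214 line (2.71, SE 0.07).

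Of 42 sarcomere genes listed, 37 were on the array and all of these were tested. In the WFS1 line 21 were higher and 1 was lower, with a median log2 difference of 0.59. Beyond the genes above, those higher were the Z-disc proteins Actn2 (2.28), Csrp3 (1.76), Myot (1.70), Myoz2 (1.18) and Ldb3 (0.82), the perinatal, fast IIb and slow myosin heavy chains Myh8 (2.27), Myh4 (2.08) and Myh7 (1.52), the slow regulatory light chain Myl2 (1.86), the fast myosin-binding protein C Mybpc2 (1.49), the M-band protein Myom1 (1.08) and cardiac actin Actc1 (0.99). Myh4 read 11.49, 11.30 and 11.37 in the WFS1 line, against 9.39, 9.34 and 9.19 in the TMEM214 line. Titin (Ttn, 0.59) and the IIx heavy chain Myh1 (0.55) passed the threshold narrowly, with no overlap of groups. Neither was called with median scaling (0.31 and 0.25), Ttn also not with the mean over its probes (0.41) or in the fit on all 21 arrays (adjusted p = 0.0531), and Myh1 also not without TMEM214 replicate 3 (0.49) or without WFS1 replicate 1 (0.47). Several abundant fast-fibre genes did not pass it, among them skeletal actin Acta1 (0.19, adjusted p = 0.2) and the fast regulatory light chain Mylpf (−0.04, adjusted p = 0.67), whose groups overlapped, and the fast alpha-actinin Actn3 (−0.22, adjusted p = 0.0538).

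The tropomyosin genes ran in opposite directions. Tpm3, the slow-fibre tropomyosin, was higher in the WFS1 line by 1.67 to 2.15 on 5 of its 6 probes. On the remaining probe it was not called (−0.03, p adjusted over all kept probes = 0.775), with 9.23, 9.04 and 9.11 in the WFS1 line and 9.15, 9.29 and 9.04 in the TMEM214 line. Tpm3 is spliced into muscle and non-muscle forms, and which form each probe reads was not determined. Tpm1, which also serves in the actin fibres of non-muscle cells, was the 1 listed sarcomere gene lower in the WFS1 line, at 10.32, 10.26 and 9.84 there against 11.77, 11.91 and 12.10 in the TMEM214 line (−1.79, SE 0.13, adjusted p = 7.42e-06). Its other kept probe gave −1.67.

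MEF2 factors bind an A/T-rich site near many of these genes. The letters CTA and TAG with any 4 bases between them, searched on both strands from 250 bases before to 50 after the start site in RefSeq promoters (GRCm38.p6), were found for 3 of the 20 called sarcomere genes with a promoter in the table (Ldb3, Myoz2 and Ttn) and for none of the 6 called calcium handling and none of the 14 called muscle metabolism genes with one. Of all tested genes with a promoter in these lists, called or not, the letters were found for 4 of 28 sarcomere genes (14.3%, beside 15% of those called). For calcium handling it was 0 of 12 and for muscle metabolism 1 of 21. The share was 6.92% of all genes called higher, 4.77% of those called lower, 3.98% of tested genes and 4.23% of all 27025 genes with a promoter in the table. Ldb3 and Myoz2 are printed as examples of a called gene's start region, with the match in capitals. The letters allow any base in the middle, where the Myoz2 match holds only A and T and the Ldb3 match also a C. The search letters were chosen after the differences were known, and a match is only a description of the window.
Myoz2, chr3:123034938-123035237, - strand: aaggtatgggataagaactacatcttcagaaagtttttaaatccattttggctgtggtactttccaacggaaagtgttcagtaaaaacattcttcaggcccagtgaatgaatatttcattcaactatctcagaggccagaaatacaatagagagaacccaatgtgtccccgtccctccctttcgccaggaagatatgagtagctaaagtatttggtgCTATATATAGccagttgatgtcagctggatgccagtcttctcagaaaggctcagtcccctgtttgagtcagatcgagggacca
Ldb3, chr14:34588558-34588857, - strand: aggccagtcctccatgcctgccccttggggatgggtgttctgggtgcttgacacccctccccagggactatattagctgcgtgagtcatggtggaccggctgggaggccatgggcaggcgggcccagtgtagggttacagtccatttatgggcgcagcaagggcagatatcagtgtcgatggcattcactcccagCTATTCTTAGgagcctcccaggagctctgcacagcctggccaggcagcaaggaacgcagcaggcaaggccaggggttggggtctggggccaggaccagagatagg
Myoz2, which encodes a calsarcin that ties calcineurin to the Z-disc, read 12.20, 12.19 and 12.21 in the WFS1 line, against 10.87, 11.01 and 11.17 in the TMEM214 line.

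Many calcium handling and muscle metabolism genes were also higher in the WFS1 line. Of 20 calcium handling genes tested (26 listed), 11 were higher and none lower (1 at an unadjusted p), with a median of 0.53. Parvalbumin (Pvalb), a cytosolic calcium buffer of fast fibres, read 10.04, 10.03 and 10.12 in the WFS1 line, against 8.55, 8.47 and 8.54 in the TMEM214 line (1.55, SE 0.05, adjusted p = 6.96e-08). Smaller differences were found for Stim1, the ER calcium sensor (0.87), its plasma membrane channel Orai1 (0.61), the luminal calcium store protein Casq1 (0.83), the slow-type calcium pump Atp2a2 (0.82) and the release channels Ryr3 (0.56) and Ryr1 (0.50). Of 25 muscle metabolism genes tested (27 listed), 15 were higher and none lower (also 0 at an unadjusted p), with a median of 0.60. They included the fatty acid carrier Fabp3 (1.71), myoglobin Mb (1.58), the muscle cytochrome oxidase subunit Cox7a1 (1.39), the mitochondrial and cytosolic creatine kinases Ckmt2 (1.19) and Ckm (0.91), and the glycolytic enzymes Ldha (1.03), Aldoa (0.99) and Tpi1 (0.89). Mb read 12.74, 12.71 and 12.85 in the WFS1 line and 11.17, 11.12 and 11.27 in the TMEM214 line. With median scaling the calls numbered 3 calcium handling and 8 metabolism genes, whose medians were then 0.22 and 0.30 beside −0.25 for all genes, and Casq1 was not among the calls (0.46, and 0.41 with the mean over its probes). None of 22 oxidative phosphorylation genes tested passed the threshold by limma, though 17 were higher and 0 lower at an unadjusted p, with a median of 0.28.

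**Figure D2:**
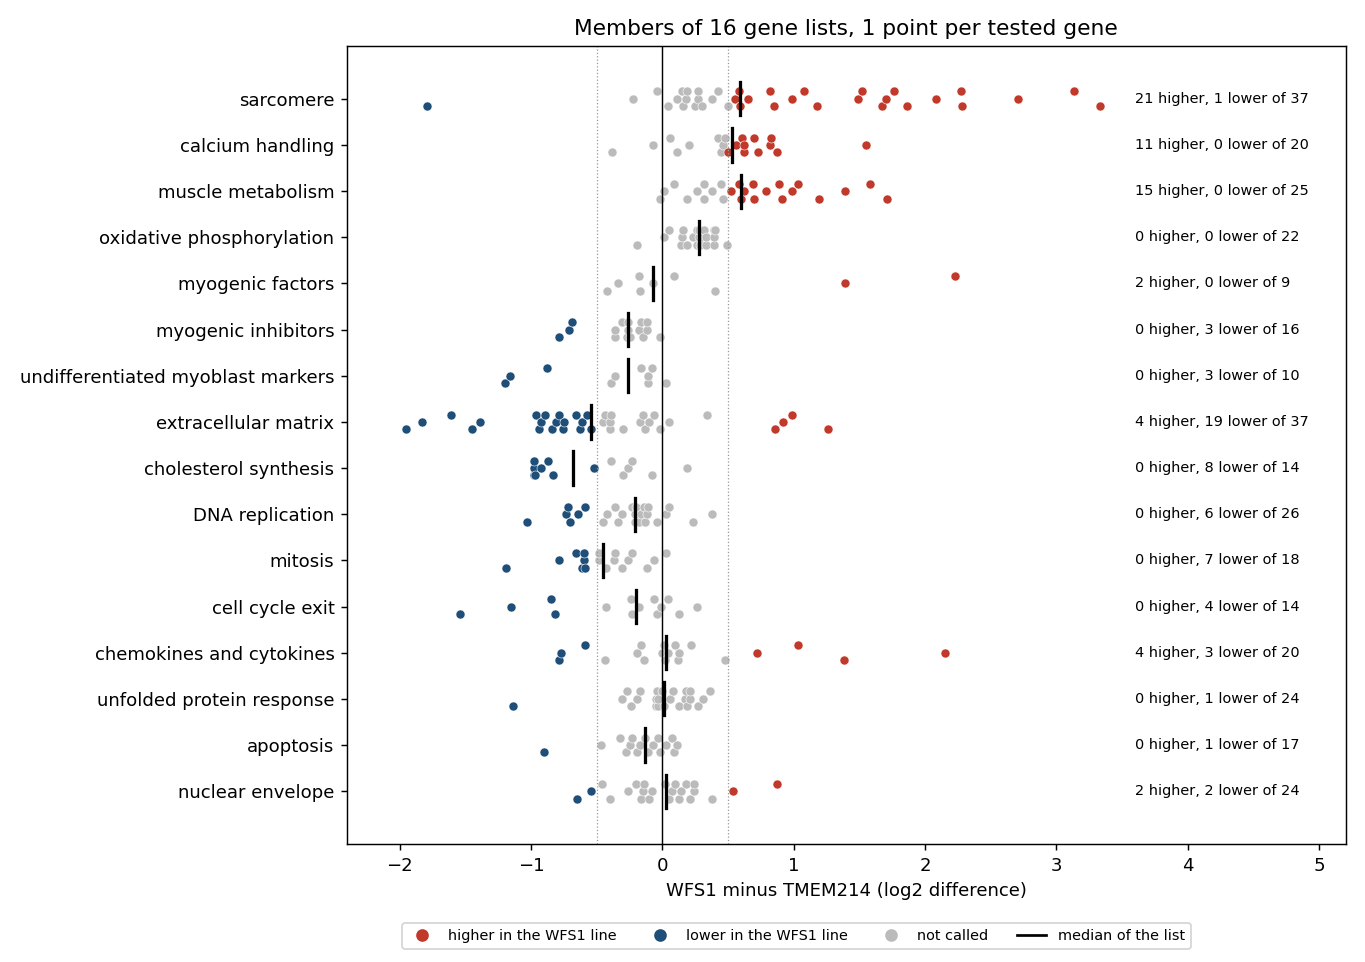
Log2 difference of the WFS1 line minus the TMEM214 line (x axis) for each tested gene of 16 lists, with called genes in colour, the list median as a bar and the threshold of 0.5 dotted. The sarcomere, calcium handling and muscle metabolism medians lie at 0.59, 0.53 and 0.60, and those of cholesterol synthesis, extracellular matrix and mitosis at −0.68, −0.54 and −0.45.

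Other leading genes of the WFS1 line were also muscle genes in part. Asb2, the substrate receptor of a ubiquitin ligase for filamins, was higher by 2.67, Hspb7, a small heat shock protein of heart and skeletal muscle, by 2.42, and Car3, a carbonic anhydrase of slow fibres, by 2.28. Car3 read 8.92, 8.92 and 8.80 in the WFS1 line and 6.56, 6.60 and 6.65 in the TMEM214 line, where 1 array was not above background. Ppp1r3c, which targets protein phosphatase 1 to glycogen, was higher by 2.60, the LIM protein Lmcd1 by 2.53, the TEAD cofactor Vgll2 by 2.44 and Armh4 by 2.88. For each of these genes the SE was 0.09 or less and the groups did not overlap. Against control Car3 was not called in the WFS1 line (0.02) and was lower in the TMEM214 line (−2.26). The other genes of this paragraph were called above control in the WFS1 line. In the TMEM214 line Hspb7 (−1.52), Armh4 (−1.11) and Asb2 (−0.64) were below control and Lmcd1 (0.50) was above it. Ppp1r3c (−0.12) and Vgll2 (0.11) were not called against control there.

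Among 9 tested myogenic factors (15 listed) 2 were higher in the WFS1 line. Myf6, the MyoD family factor MRF4 of late differentiation, read 8.88, 9.03 and 8.73 there, against 6.67, 6.66 and 6.62 in the TMEM214 line (2.23, SE 0.07, adjusted p = 7.39e-08). Mef2c, a MEF2 factor, read 12.03, 12.11 and 12.17 in the WFS1 line and 10.76, 10.75 and 10.64 in the TMEM214 line (1.39, SE 0.06, adjusted p = 2.85e-07). Myog (−0.18), Myod1 (−0.34) and the fusion protein gene Mymk (−0.42) did not pass the threshold, though Mymk did so without WFS1 replicate 2 (−0.56) and with median scaling (−0.83). Of the 9 none was called lower (3 at an unadjusted p). Of 16 tested inhibitors of myogenesis 3 were lower in the WFS1 line, namely the HLH inhibitor Id2 (−0.79), the Notch target Hes1 (−0.71) and the repressor Snai2 (−0.69), and none was higher (also 0 at an unadjusted p).

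Of genes listed as markers of undifferentiated MBs some were lower in the WFS1 line, though few of the list marked MBs on these arrays. Of 10 tested, 3 were called lower and none higher (also 0 at an unadjusted p), with M-cadherin (Cdh15) at 9.87, 9.96 and 9.89 in the WFS1 line and 11.04, 11.09 and 11.20 in the TMEM214 line (−1.20, SE 0.06), Megf10 at −1.16 and Vcam1 at −0.88. Between untransduced MTs and MBs Vcam1 was lower in MTs (−1.44), Cdh15 was not called (0.16) and Megf10 was higher in MTs (1.04), and of the 10 genes 2 were higher and 2 lower in MTs. The satellite cell factors Pax7 and Myf5 were at background, Pax7 on all 6 arrays and Myf5 on 5. Summed over all 12 marker probes the log2 signal was 12.48 to 12.56 in WFS1 arrays and 13.18 to 13.23 in TMEM214 arrays. The brightest probes of this sum were Megf10 (mean 10.45 in the WFS1 line and 11.61 in the TMEM214 line), Cdh15 (9.91 in the WFS1 line and 11.11 in the TMEM214 line) and Itga7 (10.92 in the WFS1 line and 11.03 in the TMEM214 line), none of which was lower in untransduced MTs than in MBs. The sum of 7 MT markers was 15.26 to 15.40 in WFS1 arrays and 14.88 to 14.97 in TMEM214 arrays. In bulk RNA fewer cells of a type and less RNA per cell cannot be told apart, and the part of any different share of MBs in the other gene groups was not tested. Fibroblast markers summed to 9.54 to 9.59 in WFS1 arrays and 9.84 to 9.97 in TMEM214 arrays, with Thy1, Tcf21 and Dpt at background on all arrays and the PDGF receptor Pdgfrb lower in the WFS1 line (−0.78). Adipocyte markers summed to 9.29 to 9.32 in WFS1 arrays and 9.27 to 9.31 in TMEM214 arrays, osteoblast markers to 8.97 to 8.98 in WFS1 arrays and 9.01 to 9.04 in TMEM214 arrays, and macrophage markers to 8.52 to 8.58 in WFS1 arrays and 8.55 to 8.57 in TMEM214 arrays. Endothelial markers summed to 8.57 to 8.60 in WFS1 arrays and 8.61 to 8.65 in TMEM214 arrays. None of the 4 macrophage or 4 endothelial markers was above background on all 6 arrays, and the macrophage genes Adgre1, Ptprc and Lyz2 were at background throughout.

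Among the genes lower in the WFS1 line, Fgf21, a secreted metabolic hormone that stressed muscle releases, read 8.53, 8.61 and 8.45 in the WFS1 line, against 10.61, 10.59 and 10.49 in the TMEM214 line (−2.03, SE 0.06, adjusted p = 4.92e-08). After Wfs1 itself it was the most lowered of the genes named here. Decorin (Dcn), a small proteoglycan that binds collagen, read 7.86, 7.68 and 7.80 in the WFS1 line and 9.70, 9.76 and 9.74 in the TMEM214 line (−1.95, SE 0.06, adjusted p = 4.92e-08). Mgp, an inhibitor of calcification, read 11.09, 11.27 and 11.19 in the WFS1 line and 12.92, 13.02 and 13.11 in the TMEM214 line (−1.83, SE 0.07). Thrombospondin 2 (Thbs2, −1.61), the collagen-binding proteoglycan Prelp (−1.49), the IGF carrier Igfbp4 (−1.51), the glutamate transporter Slc1a3 (−1.53) and the imprinted gene Mest (−1.50) were lower to a like degree, each without overlap.

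Of 37 extracellular matrix genes tested (50 listed, 45 on the array), 19 were lower in the WFS1 line and 4 higher, with a median of −0.54. Those lower included thrombospondin 1 (Thbs1, −1.45), the gelatinase Mmp2 (−1.39), fibronectin (Fn1, −0.96), the small proteoglycans Ogn (−0.94) and Bgn (−0.92), Sparc (−0.84) and the basement membrane collagens Col4a1 (−0.75) and Col4a2 (−0.66). Fn1 read 11.69, 11.72 and 11.57 in the WFS1 line and 12.61, 12.61 and 12.64 in the TMEM214 line. The fibrillar collagens Col1a1 (−0.39), Col1a2 (−0.45) and Col3a1 (−0.17) did not pass the threshold, though Col1a1 did so with normexp correction (−0.50) and median scaling (−0.76). The 4 higher were the laminin chains Lama2 (1.26) and Lamc1 (0.99) of the muscle basement membrane, the protease Adamts1 (0.92) and the growth factor Ccn2 (0.86). Lama2 read 8.63, 8.62 and 8.63 in the WFS1 line, against 7.34, 7.39 and 7.39 in the TMEM214 line. Of 3 tested fibroblast markers 1 was called lower in the WFS1 line (Pdgfrb) and none higher (also 0 at an unadjusted p). Col1a1 is in both the fibroblast and the matrix list, so the levels of these lists are not independent. The part of fibroblast-like cells in the matrix counts was not tested.

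Called cell cycle genes were lower in the WFS1 line. Of 18 mitosis genes tested (28 listed) 7 were lower and none higher (also 0 at an unadjusted p), with a median of −0.45, led by the centromeric histone Cenpa (−1.19), the anaphase activator Cdc20 (−0.79) and the spindle protein Prc1 (−0.66). Cenpa read 7.50, 7.56 and 7.61 in the WFS1 line and 8.82, 8.77 and 8.67 in the TMEM214 line (SE 0.06, adjusted p = 5.74e-07). Of 26 DNA replication genes tested (28 listed) 6 were lower and none higher (1 at an unadjusted p), among them Uhrf1, which guides maintenance methylation (−1.03), the helicase subunits Mcm5 (−0.73) and Mcm4 (−0.72), and the ribonucleotide reductase subunit Rrm1 (−0.70). In the cell cycle exit list 4 of 14 were lower and none higher (2 at an unadjusted p), and they did not share a role. Cyclin D1 (Ccnd1, −1.15) drives G1, whereas the inhibitor Cdkn1a (−0.82) and the growth arrest genes Gadd45a (−1.54) and Gadd45g (−0.85) slow the cycle. Gadd45a read 10.81, 10.81 and 10.95 in the WFS1 line and 12.49, 12.58 and 12.12 in the TMEM214 line. E2f2, an S-phase transcription factor, was lower too (−1.54, SE 0.05). Mitosis calls numbered 12 with normexp background correction and 13 with median scaling.

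Of 14 cholesterol synthesis genes tested (20 listed) 8 were lower in the WFS1 line and none higher (1 at an unadjusted p), with a median of −0.68. Called enzymes of the pathway were squalene epoxidase (Sqle, −0.98), Cyp51 (−0.98), Nsdhl (−0.98), Fdps (−0.97), Msmo1 (−0.87) and Lss (−0.52). Also lower were Insig1 (−0.92), which retains the sterol sensor in the ER, and the sterol carrier Stard4 (−0.83). Cyp51 read 8.75, 8.87 and 8.84 in the WFS1 line and 9.74, 9.77 and 9.90 in the TMEM214 line (SE 0.06, adjusted p = 3.03e-06). Srebf2, the transcription factor of the pathway, did not pass the threshold (0.19).

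Inflammatory genes split. Of 20 chemokine and cytokine genes tested (30 listed) 4 were higher and 3 lower in the WFS1 line. Saa3, an acute phase protein, read 10.01, 10.16 and 10.24 in the WFS1 line and 7.97, 7.91 and 8.07 in the TMEM214 line (2.15, SE 0.07, adjusted p = 6.78e-08). Cxcl1, a neutrophil chemokine, read 10.76, 10.80 and 10.84 in the WFS1 line and 9.82, 9.73 and 9.76 in the TMEM214 line (1.03, SE 0.05, adjusted p = 6.26e-07). In control shRNA MTs the means were 6.57 for Saa3 and 6.64 for Cxcl1, so both lines lay above control, the WFS1 line further. The myokine Il15 (1.38) and Il6 (0.72) were higher too, and Il18 (−0.79), Cxcl14 (−0.77) and Cxcl12 (−0.59) were lower. Il18 was at −0.50 and not called with the mean over its probes.

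The Cxcl1 start region is printed because it holds letters of the NF-kB site, GGGA and CC with any 4 bases between them, near the start site, with matches in capitals. They were sought on both strands in the same 300-base window. They stood in 7 of 15 tested and 2 of 6 called genes of this list with a promoter given, beside 30.4% of the 8864 tested genes and 22.9% of all 27025 genes with one. Among called genes of all kinds the share was 35.1% of those higher and 35.7% of those lower in the WFS1 line.
Cxcl1, chr5:90890995-90891294, + strand: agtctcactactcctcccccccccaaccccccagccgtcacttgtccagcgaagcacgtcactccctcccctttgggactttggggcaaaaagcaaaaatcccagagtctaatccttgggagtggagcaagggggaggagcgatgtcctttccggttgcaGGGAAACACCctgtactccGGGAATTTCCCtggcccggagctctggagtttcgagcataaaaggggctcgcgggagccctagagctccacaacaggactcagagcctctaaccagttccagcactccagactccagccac
The second run of capitals holds 2 overlapping matches.

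Genes of the unfolded protein response, which ER stress switches on, held 1 call between the lines. Of 24 tested (27 listed) none was higher (9 at an unadjusted p) and 1 was lower in the WFS1 line, with a median of 0.01. The share called was 4.17%, beside 9.77% of all genes. The 1 lower was asparagine synthetase (Asns), an ATF4 target that also answers to amino acid supply, at 10.43, 10.44 and 10.38 in the WFS1 line and 11.47, 11.67 and 11.53 in the TMEM214 line (−1.14, SE 0.06, adjusted p = 1.22e-06). The ER chaperone Hspa5 (BiP) read 8.39, 8.25 and 8.38 in the WFS1 line and 7.94, 8.09 and 8.17 in the TMEM214 line. That is 0.27 (SE 0.07, adjusted p = 0.0121), below the size asked for, without overlap. Dnajb9 (0.36), the pro-apoptotic factor Ddit3 (0.21, adjusted p = 0.0781) and Xbp1 (0.21) were not called either. The parts of the ER stress element, CCAAT and CCACG on either strand at any spacing, stood together in 15 of 21 promoters of this list, beside 20.3% of tested genes and 13.3% of all genes with a promoter given. The Hspa5 window shows both, in capitals, upstream of a gene that was not called.
Hspa5, chr2:34771840-34772139, + strand: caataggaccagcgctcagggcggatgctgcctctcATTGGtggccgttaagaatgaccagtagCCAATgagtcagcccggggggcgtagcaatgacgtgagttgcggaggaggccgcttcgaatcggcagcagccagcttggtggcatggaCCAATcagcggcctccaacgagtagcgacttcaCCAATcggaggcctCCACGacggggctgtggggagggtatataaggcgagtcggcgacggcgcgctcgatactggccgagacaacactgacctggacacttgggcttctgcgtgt
In 17 tested apoptosis genes Bid, a BH3-only activator, was lower (−0.90) and none was higher (also 0 at an unadjusted p). The share called was 5.88%, likewise beside 9.77% of all genes.

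Of 24 nuclear envelope genes tested 4 were called (16.7%, beside 9.77% of all genes). The pore membrane protein Nup210 (0.87) and Tmem201 (0.54) were higher, and the lamin A processing protease Zmpste24 (−0.65) and lamin B2 (Lmnb2, −0.54) were lower in the WFS1 line. Tmem201 was not called with median scaling (0.14) or without WFS1 replicate 1 (0.48), and Lmnb2 not without TMEM214 replicate 1 (−0.49). Of 18 genes for ER membrane and calcium proteins 2 were called (11.1%). Tmem38b (0.54), a channel related to Tmem38a, and the reticulon Rtn2 (0.52) were higher and none was lower (5 at an unadjusted p). With median scaling neither was called (0.24 and 0.17), and Rtn2 was not called without WFS1 replicate 2 (0.46). Lamin A (Lmna, 0.18) and emerin (Emd, 0.24) did not pass the threshold.

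The 8 genes that the study itself singled out were read in the same way, and as it chose them with these arrays in hand they are no independent evidence. Cxcl1 (1.03) was higher in the WFS1 line, and Vcam1 (−0.88) and the ephrin Efna5 (−0.54, or −0.49 and not called without TMEM214 replicate 1) were lower. Vcam1 read 7.86, 7.71 and 7.70 in the WFS1 line and 8.71, 8.49 and 8.72 in the TMEM214 line. Nid1 (−0.40), Bdnf (0.26), Ddr2 (−0.09), Msc (−0.16) and Ptn (−0.27) were not called, though Nid1 was with normexp correction (−0.54) and with median scaling (−0.74). Msc and Ptn were at background on all WFS1 arrays and just above it in the TMEM214 line.

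In the IGF and mTOR list the 22 tested genes held 2 higher, Igf2r and Igf2 (0.51 each), and 3 lower, Igfbp4, Igfbp2 (−0.65) and Irs2 (−0.58). Igf2r was not called with median scaling (0.11), with the mean over its probes (0.48), without TMEM214 replicate 2 (0.47), or without WFS1 replicate 2 (0.44) or 3 (0.49). Of 17 immediate early genes the phosphatase gene Dusp1 (1.11), Atf3 (0.92) and Ier3 (0.69) were higher and Egr3 (−0.62) was lower, and Ier3 was not called with median scaling (0.34). Of 22 interferon response genes only the GTPase Igtp was called higher (0.89) and none lower (3 at an unadjusted p). Of 15 neuromuscular junction genes the agrin receptor Lrp4 was lower (−0.56, or −0.50 and not called without WFS1 replicate 1, and −0.22 with the mean over its probes) and none higher (3 at an unadjusted p). Of 17 ubiquitin ligase and autophagy genes Atg12 was lower (−0.82) and none higher (6 at an unadjusted p). Of 14 p53 targets Cdkn1a was lower and Sesn1 higher (0.65, or 0.26 and not called with median scaling and 0.44 with the mean over its probes). The share called was 22.7% in the IGF and mTOR list, 23.5% of immediate early genes and 14.3% of p53 targets. It was 4.55% for interferon response, 6.67% for neuromuscular junction and 5.88% for ubiquitin ligase and autophagy genes, beside 9.77% of all genes. None of 9 housekeeping genes was called by limma (3 higher and 4 lower at an unadjusted p), and the largest differences among them were 0.46 for Gapdh and 0.45 for Hprt. Both passed the threshold when 1 array was left out, Gapdh without WFS1 replicate 3 (0.61) or TMEM214 replicate 3 (0.52) and Hprt without WFS1 replicate 2 (0.52) or TMEM214 replicate 3 (0.52).

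Where control shRNA MTs lay says which line departed from them, and not which line departed from untransduced MTs. Control lay between both lines for 373 of the 522 genes higher in the WFS1 line and for 292 of the 548 lower, beside 3565 of all 10951 tested genes. It lay below both lines for 81 of the higher and 168 of the lower genes, and above both for 68 of the higher and 88 of the lower genes. Both comparisons with control use the same 3 control arrays, so they are not independent and are given side by side only. The called genes were also chosen on the same WFS1 and TMEM214 arrays. A control level between the lines and lopsided counts are therefore in part built in. The fit on all 21 arrays called 4.07% of genes higher and 3.65% lower in the WFS1 line than in control, and 4.95% higher and 3.82% lower in the TMEM214 line than in control. Among the 522 genes higher in the WFS1 line than in the TMEM214 line, 225 were above and 7 below control in the WFS1 line, and 10 were above and 182 below control in the TMEM214 line. Among the 548 lower genes, 17 were above and 142 below control in the WFS1 line, and 265 were above and 12 below control in the TMEM214 line.

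By list, these counts were as follows. Of 20 calcium handling genes none was called against control in the WFS1 line and 10 were below it in the TMEM214 line. Of 25 muscle metabolism genes 3 were above and none below control in the WFS1 line, and none was above and 10 below it in the TMEM214 line. Of 37 sarcomere genes 15 were above and 1 below control in the WFS1 line, and 1 was above and 17 below it in the TMEM214 line. Matrix genes above control numbered 9 of 37 in the WFS1 line and 24 in the TMEM214 line, with 1 below it in each. Of 18 mitosis genes none was called in the WFS1 line and 9 were above control in the TMEM214 line. Cholesterol synthesis ran the other way, with 5 of 14 below control in the WFS1 line and 1 in the TMEM214 line. Some genes departed from control mainly in one line. Ppp1r3c differed from control by 2.48 in the WFS1 line and −0.12 in the TMEM214 line, and Vgll2 by 2.55 in the WFS1 line and 0.11 in the TMEM214 line. Dcn differed from control by −0.11 in the WFS1 line and 1.84 in the TMEM214 line, and Igfbp4 by 0.10 in the WFS1 line and 1.62 in the TMEM214 line. Control shRNA MTs could themselves lie apart from untransduced MTs. Dcn averaged 7.89 in control, 9.58 in untransduced MTs and 9.74 in the TMEM214 line, and Igfbp4 8.86, 9.07 and 10.48 in that order. Ppp1r3c averaged 7.37 in control and 7.09 in untransduced MTs, and Vgll2 7.87 in control and 7.04 in untransduced MTs.

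**Figure D3:**
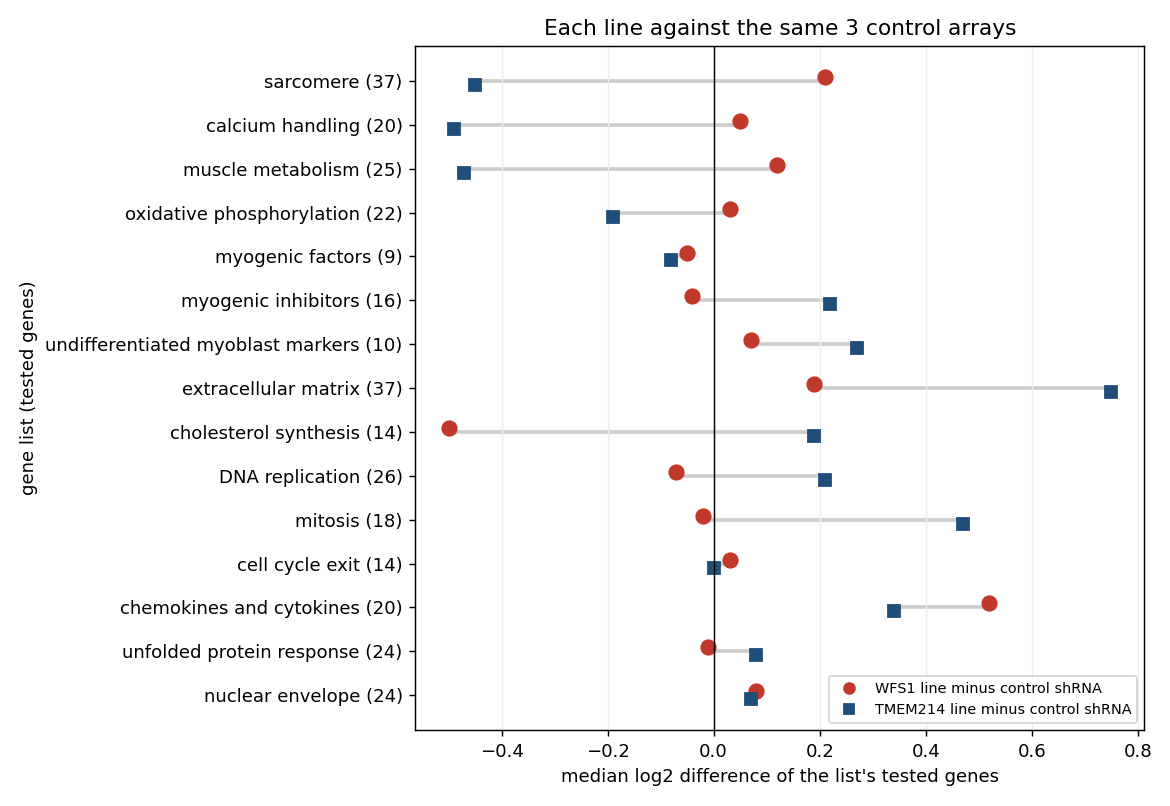
Median log2 difference from control shRNA MTs (x axis) of 15 lists in the WFS1 line (circles) and the TMEM214 line (squares), with the number of tested genes after each list's name. Both points of a list use the same 3 control arrays, and the extracellular matrix list lies at 0.19 in the WFS1 line and 0.75 in the TMEM214 line.

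Untransduced MTs and MBs share no array with the contrast. Their difference sets day 6 MTs in 2% horse serum with TTX against day 0 MBs, for which the labels give neither. Differentiation, serum, TTX and time cannot be told apart in it. Of all tested genes 14.7% were higher and 15.8% lower in MTs than in MBs. Of the 522 genes higher in the WFS1 line 281 (53.8%) were higher and 43 (8.24%) lower in MTs than in MBs. Of the 548 genes lower in the WFS1 line 111 (20.3%) were higher and 234 (42.7%) lower. One MB array stood apart from the other two, and without it the counts were 276 and 48 and then 114 and 235. Exceptions were found at both ends, as Fgf21, Dcn and Gadd45a, all lower in the WFS1 line, were higher in untransduced MTs than in MBs by 3.23, 2.25 and 3.05. Vgll2 and Saa3, both higher in the WFS1 line, were not called between MTs and MBs (−0.49 and −0.09).

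**Figure D4:**
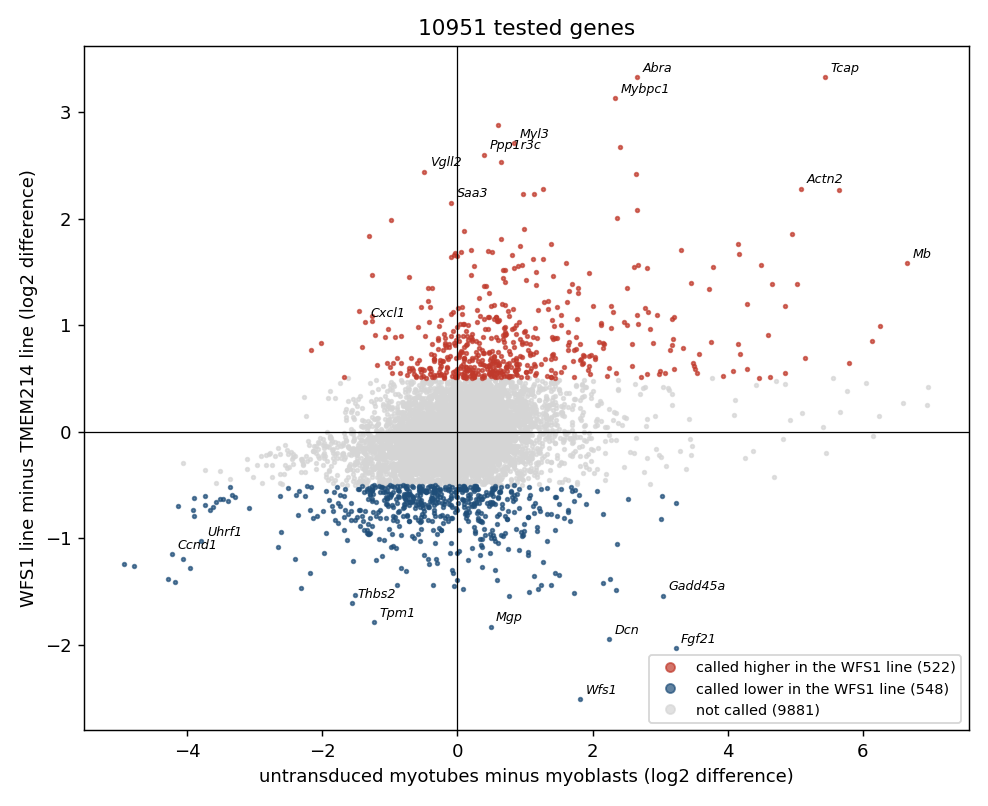
Log2 difference of the WFS1 line minus the TMEM214 line (y axis) against that of untransduced MTs minus MBs (x axis) for 10951 genes, with the 522 genes higher and the 548 lower in the WFS1 line in colour. Muscle genes such as Tcap, Actn2 and Mb lie at the upper right, and Fgf21, Dcn and Gadd45a at the lower right.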

How the data were processed

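Raw bead intensity came from the authors' scanner output. There the control MTs are headed empty, as in the study's legends, which name an empty vector, while the labels write control shRNA. Levels are log2 values that the authors deposited after quantile normalisation. Within each array its ranks equalled those of the scanner values. For the arrays, a genome build and tool versions are not given in the sources used here. Probes were named through the platform annotation (34885 of 45281 with 1 symbol, 18 with several, 10378 with none). The background level was the mode (bandwidth 0.01) plus the 0.95 normal quantile times the SD of values below it. Of 3413 kept probes without a single symbol 210 were called.

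The 6 arrays were fitted with lmFit and eBayes (limma 3.58.1, R 4.3.3), with Benjamini-Hochberg adjustment over 10951 genes. The test was checked on simulated data. Members, gene lists and the rule for named genes were chosen with earlier results of these data known. The rule took the targets, the 12 largest differences each way, up to 4 per list and the study's candidates. The 12 each way came from called genes whose groups did not overlap, leaving out clone and predicted gene names. Genes named beyond that rule were picked from the lists after their values were seen. Alternatives were normexp correction (offset 50), median scaling, all 21 arrays, other filters, mean over probes, replicate block, trended robust prior and leaving out each array.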

Additional observations from a re-analysis of the deposited data

How the results depend on the processing

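None of the 1070 called genes was called in the opposite direction under any alternative listed. The count of 1070 called genes (522 higher and 548 lower in the WFS1 line) ranged over 1074 to 1104 (526 to 539 higher, 548 to 573 lower) when 1 array was left out. Median scaling gave 2876 calls (237 higher, 2639 lower), of which 785 were among the 1070. It lowered the calcium handling genes called higher to 3 and the muscle metabolism genes to 8, and raised the mitosis genes called lower to 13, which normexp correction put at 12. Normexp with quantile normalisation called 1526 genes, and the mean over probes 887. Deviations of same-numbered arrays of both lines correlated at r −0.0259, 0.0616 and −0.268, and those of different-numbered arrays at −0.208 to 0.191. With 3 arrays per line these values cannot decide whether the numbers pair the arrays. The replicate block left 1070 calls. Of 136 named genes over all alternatives, 27 of 1893 values lost a call and 35 gained one. The cause was not tested. A block for the BeadChip was not run, as the files do not give the chip of an array. Actb and Ahnak had probes called in opposite directions.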

Other observations

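Lists put together after the values were seen add the following, as counts and values only. Of 29 tested hypoxia-inducible genes 16 were called higher in the WFS1 line than in the TMEM214 line and none lower (1 at an unadjusted p under 0.05 by limma), with a median log2 difference of 0.70. Car9, a carbonic anhydrase and a common hypoxia marker, read 8.32, 8.33 and 8.20 in the WFS1 line and was not above background on any TMEM214 array (6.59, 6.56 and 6.56), so it was at least 3.21-fold higher. The glycolytic enzyme Eno2 (1.90, SE 0.05), the pyruvate dehydrogenase kinase Pdk1 (1.88, SE 0.05), the phosphofructokinase Pfkl (1.45), the collagen prolyl hydroxylases P4ha2 (1.19) and P4ha1 (1.01) and the glucose transporter Slc2a1 (1.09) were higher too. Pdk1 read 9.60, 9.57 and 9.51 in the WFS1 line and 7.71, 7.59 and 7.73 in the TMEM214 line. Ndrg1 (0.02), Kdm3a (0.01) and Ddit4 (−0.07), also hypoxia-inducible, were not called between the lines. Against control Ndrg1 was higher in both lines, by 1.74 in the WFS1 line and 1.73 in the TMEM214 line. Kdm3a and Ddit4 were not called against control in either line. Car9, Eno2, Pdk1, Pfkl, P4ha2, P4ha1 and Slc2a1 were above control in the WFS1 line. None of these was called against it in the TMEM214 line. Aldoa was instead below control in the TMEM214 line (−0.87) and not called in the WFS1 line (0.12). The list shares some glycolytic members with muscle metabolism, among them Ldha, Aldoa and Tpi1, but not Eno2 or Pfkl.

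Of 17 tested genes of the non-sarcomeric actin cytoskeleton 10 were lower in the WFS1 line and none higher (1 at an unadjusted p), with a median of −0.86. Smooth muscle actin Actg2 read 8.89, 8.97 and 9.01 in the WFS1 line and 10.41, 10.45 and 10.41 in the TMEM214 line (−1.47, SE 0.05), and Lasp1 (−1.33), the actin-sequestering Tmsb4x (−1.19), caldesmon Cald1 (−1.14) and filamin A (Flna, −1.02) were lower as well. Of 15 genes of amino acid synthesis and ATF4 targets 6 were lower, among them Psat1 (−1.16), Asns and Mthfd2 (−0.92), and Vldlr was higher (0.96). Of 13 genes listed under fatty acid synthesis 6 were lower and none higher (also 0 at an unadjusted p). They were led by Hsd17b7 (−1.48), which is an enzyme of sterol synthesis, and Fads1 (−1.08). Fasn (−0.11) and Acaca (0.04), both near background, and Srebf1 (−0.10) were not called. Of 43 clustered core histone genes 17 were lower and none higher (also 0 at an unadjusted p), with a median of −0.47 and H2ac7 at −1.41, but near-identical copies can share a probe's signal. Of 14 small heat shock proteins and chaperones Hspb7, Hspb6 (1.99), Hspb3 (1.01) and Dnajb4 (0.65) were higher and none lower (1 at an unadjusted p).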
